A study of Mus musculus with 20 samples.

Results

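Dp3Tyb and Ts1Rhr mice model Down syndrome through overlapping tandem duplications of mouse chromosome 16, a region orthologous to human chromosome 21, and 8 protein-coding genes lie in the longer duplication and outside the shorter one. These genes are Setd4 and Cbr1 at the proximal end and Mx2, Tmprss2, Ripk4, Prdm15, C2cd2 and Zbtb21 at the distal end. They were defined by position, as the genes present in 3 copies in Dp3Tyb and in 2 copies in Ts1Rhr. Earlier results of these data were known when they were chosen, and they are 8 of the 48795 genes in the expression table. RNA was sequenced from whole embryonic hearts at E13.5 in 4 groups of 5 hearts on a C57BL/6J background. Dp3Tyb embryos carried the Dp(16Mir802-Zbtb21)3TybEmcf allele and were compared with wild-type (WT) littermates of their own cohort, and Ts1Rhr embryos carried Dp(16Cbr1-Fam3b)1Rhr and were compared with WT embryos of theirs. The sample labels read "DS model heart defects" for all 5 Dp3Tyb hearts. They read the same for 2 of the 5 Ts1Rhr hearts (replicates 1 and 2) and "DS model no heart defects" for the other 3. Whether these words describe the strain or the single heart is not given. The extra segment was present in every cell of the embryo from conception, so the hearts differ in the dose of the whole duplicated segment and not of any 1 gene. WT and Ts1Rhr hearts all carried 2 copies of the 8 genes, which gave 15 hearts with 2 copies and 5 with 3.

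An additional copy of a gene adds template for transcription, and where nothing compensates, mRNA is usually taken to rise in proportion to copy number, here 1.5-fold. The pair of duplications is of interest because Dp3Tyb embryos develop congenital heart defects, whereas the study describes Ts1Rhr embryos as free of them. The sample labels of 2 Ts1Rhr hearts carry the words "heart defects", which differs from that description, and the groups here follow genotype. Setd4 and Prdm15 encode proteins with SET or SET-related domains, which in other members of these families methylate lysines, and Zbtb21 encodes a BTB zinc-finger transcriptional regulator. Cbr1 encodes an NADPH-dependent carbonyl reductase that acts on quinones, prostaglandins and anthracycline drugs, and C2cd2 encodes a protein with a lipid-binding type of C2 domain. Ripk4 encodes a kinase needed for differentiation of stratified epithelium, Tmprss2 a membrane-anchored serine protease of lung, gut and prostate epithelium, and Mx2 an interferon-induced GTPase of the dynamin family. Mir802, a microRNA gene at the proximal end, is not among the 8 coding genes and its row was at 0 in all 20 libraries, which were made from mRNA and would not capture a mature microRNA.

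Libraries held 6.60 to 19.6 M reads assigned to genes, and all values below are normalised read counts, that is, reads divided by a library size factor. Mitochondrial transcripts took 4.85% to 19.5% of reads, above 10% in 7 of the 20 libraries. In the Ts1Rhr cohort these were WT replicates 1, 2 and 4 (11.8%, 10.5% and 17.2%) and Ts1Rhr replicates 1 and 2 (11.6% and 13.1%). Those 2 Ts1Rhr hearts are the ones labelled "DS model heart defects". In the Dp3Tyb cohort replicate 5 of each group stood apart, with 19.5% (WT, the shallowest library) and 15.5% (Dp3Tyb) mitochondrial reads and a mean chi-square per gene of 100.5 to 151 against the other hearts of its group, beside 4.11 to 13.0 for the other pairs. Without these 2 libraries the log2 fold changes in Dp3Tyb were 0.64 for Cbr1, 0.69 for C2cd2 and 0.48 for Zbtb21, all still called (limma adjusted p 6.49e-05 to 0.00161). Cardiomyocyte markers were abundant in every heart, with a summed count of 304360 or more over 10 genes. Of 6 defining markers of lung and foregut epithelium, namely Nkx2-1, Sftpc, Foxa2, Shh, Epcam and Cdh1, the summed count ran from 4.57 to 409 in WT littermates of Dp3Tyb, 64.7 to 512 in Dp3Tyb, 122 to 429 in WT littermates of Ts1Rhr and 5.99 to 326 in Ts1Rhr. Nkx2-1 was below 2 in 3 WT littermates of Dp3Tyb (replicates 2, 4 and 5) and in 2 Ts1Rhr hearts (replicates 1 and 3), and was at least 10.2 in the other 15. In bulk tissue, fewer cells of a type and less RNA per cell cannot be told apart.

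In Dp3Tyb hearts all 8 genes had a higher estimate than in WT littermates, with a median log2 fold change of 0.64 (1.56-fold) beside −0.0027 over all genes tested. Of these, Cbr1, C2cd2 and Zbtb21 rose at an adjusted p below 0.05 (limma, Benjamini-Hochberg over 14763 genes). That is 3 of 8 against 0.0542% of all genes tested. DESeq2 called 4 of the 8, adding Prdm15, against 0.23% of all genes. Adjusted p-values below are from limma unless another tool is named, and those of the reported fits cover 14867 genes in Ts1Rhr and 15348 in comparisons over all 20 hearts. In 4 genes, Cbr1, Prdm15, C2cd2 and Zbtb21, the lowest of the 5 Dp3Tyb hearts was above the highest of the 5 WT littermates, a separation in either direction that 0.975% of all genes tested showed. In Ts1Rhr hearts none of the 7 genes that could be tested was called against WT littermates (0.0269% of 14867 genes were), none had an unadjusted p below 0.05, and neither edgeR nor DESeq2 called one (0.168% of all genes with DESeq2). The median log2 fold change in Ts1Rhr was 0.06, and in none of the 7 did the groups separate (1.12% of all genes did).

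**Figure D1:**
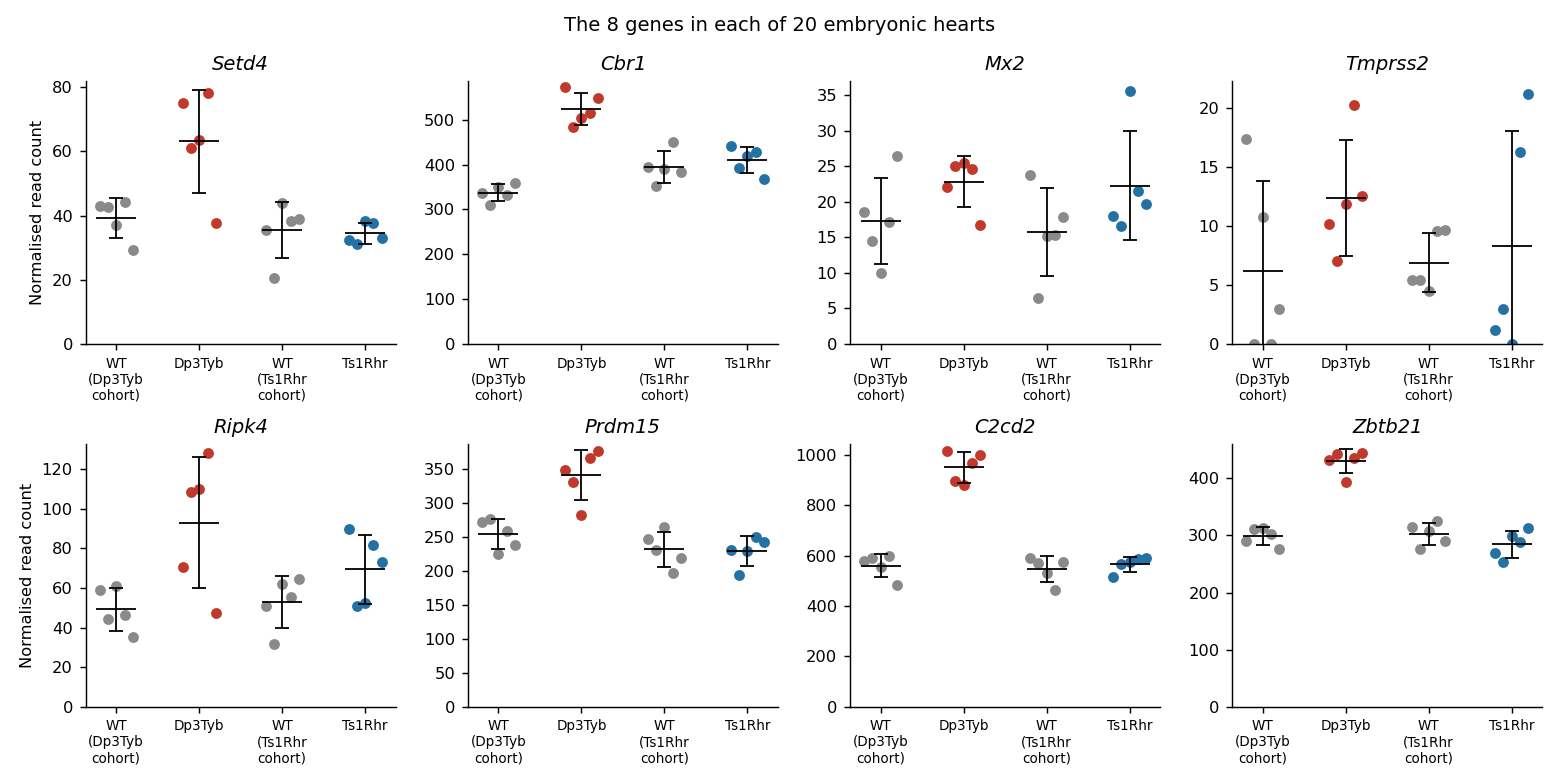
Normalised read count of each of the 8 genes (y axis, one panel per gene, each axis from 0) in every heart of the 4 groups (x axis). Points are single hearts, and bars give the mean and SD of 5 hearts. In Cbr1, Prdm15, C2cd2 and Zbtb21 the 5 Dp3Tyb hearts lie above all 15 hearts with 2 copies, while in Mx2 and Tmprss2 the highest value belongs to a Ts1Rhr heart.

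The 3 called genes differ in the sequence upstream of their start, which is shown here because it is the DNA beside the start that was duplicated with each gene. RefSeq promoter windows on GRCm38.p6 were matched for 6 of the 8 genes by symbol, and the 250 bases upstream of the listed start are printed 5′ to 3′ on the gene's own strand, with each CG dinucleotide in capitals. They lie at chr16:93607587-93607836 on the plus strand for Cbr1, at chr16:97922634-97922883 on the minus strand for C2cd2 and at chr16:97962623-97962872 on the minus strand for Zbtb21.
Cbr1: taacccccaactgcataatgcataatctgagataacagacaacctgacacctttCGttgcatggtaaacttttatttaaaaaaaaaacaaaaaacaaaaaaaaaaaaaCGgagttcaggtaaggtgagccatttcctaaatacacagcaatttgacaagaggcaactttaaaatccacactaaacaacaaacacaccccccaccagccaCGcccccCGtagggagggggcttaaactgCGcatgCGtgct
C2cd2: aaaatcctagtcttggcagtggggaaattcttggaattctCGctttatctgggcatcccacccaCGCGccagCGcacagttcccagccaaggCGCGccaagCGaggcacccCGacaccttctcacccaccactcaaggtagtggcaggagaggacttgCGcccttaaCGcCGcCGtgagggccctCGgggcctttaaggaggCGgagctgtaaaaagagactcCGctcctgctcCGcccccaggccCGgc
Zbtb21: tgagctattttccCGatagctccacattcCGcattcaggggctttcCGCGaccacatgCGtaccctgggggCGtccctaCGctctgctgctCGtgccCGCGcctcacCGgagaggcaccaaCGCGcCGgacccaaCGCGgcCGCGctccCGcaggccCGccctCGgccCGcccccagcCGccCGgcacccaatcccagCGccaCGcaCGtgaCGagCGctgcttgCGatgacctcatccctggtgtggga
The Cbr1 window held 6 CG dinucleotides and 41.6% G and C, the C2cd2 window 17 and 62.4%, and the Zbtb21 window 30 and 70.0%, beside medians of 6 and 52.4% over 32851 windows of the same length. The letters GGGCGG, searched on both strands, were in the C2cd2 and Zbtb21 windows and in 32.7% of all windows. CCAAT (33.8% of all windows) and CACGTG (6.02%) were found only in the Zbtb21 window among these 3, TATAAA (12.4%) and TGACNNNGC (10.2%) in none of them. None of the searched motifs contains another, and a match describes letters and not a bound site. The C2cd2 start used by the table lies inside the span RefSeq gives the gene, chr16:97855209-97925795.

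Among the genes for chromatin and transcription factors, Zbtb21 (ENSMUSG00000046962, chr16:97945795-97962627, minus strand) gave the tightest measurement. Its normalised read counts were 291, 311, 314, 302 and 276 in WT littermates and 432, 443, 393, 436 and 445 in Dp3Tyb. The lowest Dp3Tyb heart, replicate 3, was still above every WT heart. The log2 fold change was 0.52 ± 0.07 (SE, 5 against 5 hearts, limma adjusted p = 0.0297), that is 1.44-fold with a 95% confidence interval of 1.29 to 1.60. Leaving out 1 heart moved the log2 fold change only between 0.49 and 0.55, but the call was kept in 1 of 10 such fits, the one without WT replicate 5 (adjusted p = 0.0183), and the adjusted p ranged from 0.0183 to 0.141 over those 10 fits and was 0.0877 with no filter on low values. With the lung and foregut score as a covariate the estimate was 0.51 and the call was lost (adjusted p = 0.153). In Ts1Rhr the counts were 269, 254, 298, 288 and 314 against 315, 276, 307, 325 and 291 in WT littermates, and the groups overlapped. The interval in Ts1Rhr, 0.83 to 1.06-fold, did not include 1.5-fold.

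Prdm15 (ENSMUSG00000014039, chr16:97791467-97851875, minus strand) was the least raised of the 4 genes that separated, at 271, 276, 224, 258 and 238 in WT littermates and 348, 331, 282, 366 and 376 in Dp3Tyb. The gap between the groups was narrow, because Dp3Tyb replicate 3 at 282 stood close to WT replicate 2 at 276. The log2 fold change of 0.42 ± 0.10 (1.34-fold, interval 1.15 to 1.56) did not pass the threshold in limma (adjusted p = 0.628) and passed it in DESeq2 (adjusted p = 0.0421). Ts1Rhr hearts had 230, 193, 229, 250 and 243 against 247, 231, 264, 197 and 219 in their WT littermates. That is 0.99-fold with an interval of 0.85 to 1.15, below 1.5-fold throughout.

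Setd4 (ENSMUSG00000022948, chr16:93583457-93604791, minus strand) was counted at a far lower level than Zbtb21, with 10 to 108 reads per library behind its values. WT littermates had 42.9, 42.6, 37.1, 44.1 and 29.4, and Dp3Tyb hearts 74.9, 61.0, 63.6, 78.2 and 37.8. Of the Dp3Tyb hearts, 4 lay above all 15 hearts with 2 copies and replicate 5 lay among them. Dp3Tyb exceeded WT by 0.64 ± 0.21 on the log2 scale (1.56-fold, interval 1.14 to 2.15, limma adjusted p = 1.0, unadjusted 0.00999), and without Dp3Tyb replicate 5, a library with 15.5% mitochondrial reads, it was 0.82 (adjusted p = 0.375). With the mitochondrial share as a covariate the Setd4 estimate was 0.62 (adjusted p = 0.107). Without all libraries over 10% mitochondrial it was 0.72 (adjusted p = 0.0776). With library weights it was 0.65 and was called (limma adjusted p = 0.0378), in a fit that called 57 of 14763 genes. In Ts1Rhr the counts were 32.3, 31.2, 38.2, 37.8 and 32.9 against 35.6, 20.6, 43.9, 38.3 and 38.8, a difference of −0.0011 ± 0.20 on the log2 scale whose interval (0.74 to 1.36-fold) left out 1.5-fold.

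Cbr1 (ENSMUSG00000051483, chr16:93607837-93610349, plus strand), the carbonyl reductase, starts 3046 bases from Setd4 and is read from the opposite strand. WT littermates had 337, 309, 350, 332 and 358 and Dp3Tyb hearts 573, 483, 504, 515 and 548. Every Dp3Tyb heart exceeded every WT littermate by a wide margin. The log2 fold change was 0.64 ± 0.07 (1.55-fold, interval 1.39 to 1.73, limma adjusted p = 0.0126). It ranged from 0.60 to 0.66 when 1 heart was left out, with adjusted p from 0.00829 to 0.0684, and 3 of those 10 fits kept the call (without WT replicate 5, Dp3Tyb replicate 2 or Dp3Tyb replicate 5). With the lung and foregut score as a covariate the estimate was 0.63 and was not called (adjusted p = 0.0852). Ts1Rhr hearts had 442, 393, 420, 428 and 368 against 395, 352, 391, 450 and 384 in WT littermates, 1.04-fold with an interval of 0.92 to 1.18.

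Cbr1 was also compared between the WT groups of the cohorts. It averaged 394 ± 35.5 (SD, n = 5) in WT littermates of Ts1Rhr and 337 ± 18.9 in those of Dp3Tyb, a log2 difference of 0.22 ± 0.07 (limma unadjusted p = 0.00662, adjusted p = 0.833). Cbr1 was the 1 gene of the 8 with an unadjusted p below 0.05 between the WT groups, where 896 of 15348 genes had one. None of the 8 was called there by limma, edgeR or DESeq2, and over all 15348 genes limma called 0%, edgeR 0 and DESeq2 6. Cohort cannot be told apart from whatever else differed between the litters, and the comparison with littermates does not depend on it.

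C2cd2 (ENSMUSG00000045975, minus strand) had the highest fold change of the called genes, with 577, 592, 556, 597 and 482 in WT littermates and 1017, 894, 880, 969 and 999 in Dp3Tyb. Every Dp3Tyb heart lay well clear of every WT littermate. The log2 fold change was 0.76 ± 0.08 (1.70-fold, limma adjusted p = 0.00573), and the call was kept in all 10 fits that left out 1 heart (adjusted p 0.00162 to 0.0391). The interval of 1.51 to 1.91-fold lay just above 1.5-fold, the 1 interval of the 8 to do so. The lower bound was above 1.5-fold in 9 of 20 fits with an interval and ranged from 1.46 to 1.55-fold over them, so the position of C2cd2 relative to 1.5-fold was not settled. Ts1Rhr hearts had 516, 565, 574, 586 and 590 against 591, 571, 531, 463 and 575, 1.04-fold with an interval of 0.92 to 1.17.

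C2cd2 and Zbtb21 lie 20000 bases apart in RefSeq on the same strand, and their exons share 86 bases in the later GENCODE annotation, so a few reads could be assigned to either. Their sum was 868, 903, 869, 900 and 757 in WT littermates and 1448, 1337, 1273, 1406 and 1443 in Dp3Tyb, 1.61-fold. In Ts1Rhr the sum was 1.002-fold that of WT littermates.

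**Figure D2:**
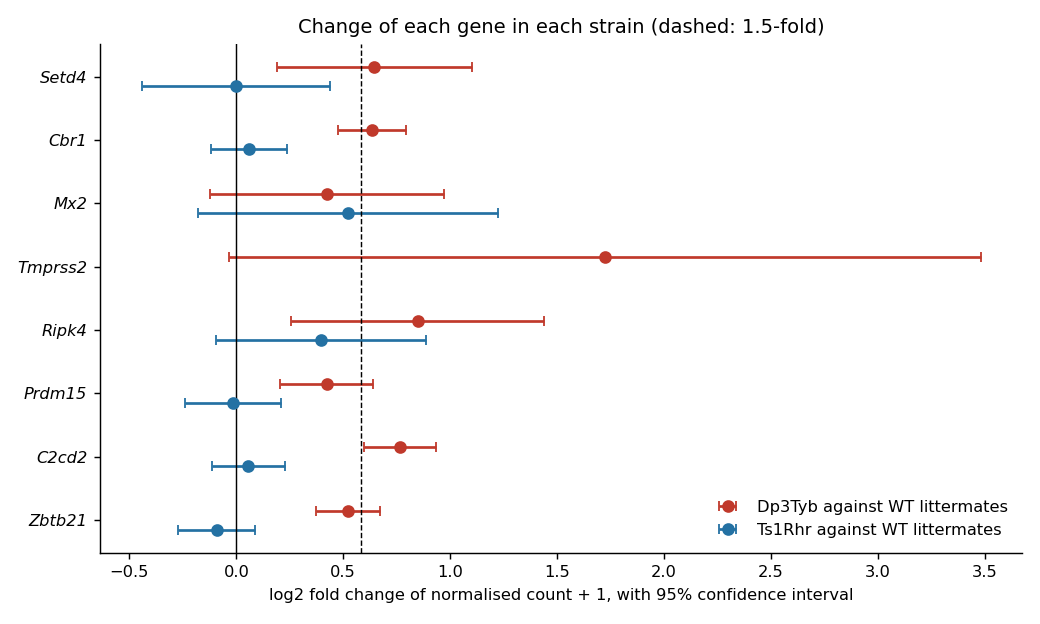
Log2 fold change (x axis) of each gene (y axis) in Dp3Tyb and in Ts1Rhr against their own WT littermates. Points are limma estimates from 5 against 5 hearts and bars are 95% confidence intervals, the solid line is no change, and the dashed line is 1.5-fold. Tmprss2 in Ts1Rhr was too low to be fitted and has no point. In Dp3Tyb 7 of 8 intervals include 1.5-fold and 1, C2cd2, lies above it, while in Ts1Rhr 5 of 7 lie below it and all 7 include no change.

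Ripk4 (ENSMUSG00000005251, chr16:97741933-97763779, minus strand), the epithelial kinase, was spread over a wide range in Dp3Tyb. WT littermates had 59.1, 44.2, 61.1, 46.4 and 35.2, and Dp3Tyb hearts 70.7, 109, 110, 128 and 47.6. Replicates 1 to 4 were above all WT littermates and replicate 5 was among them. The estimate was 0.85 ± 0.27 on the log2 scale (1.80-fold, interval 1.196 to 2.71, limma unadjusted p = 0.00905, adjusted p = 1.0). With library weights the Dp3Tyb estimate was 0.98 and was called (limma adjusted p = 0.0117), in a fit that called 57 of 14763 genes. Ts1Rhr hearts, with 2 copies, had 89.8, 50.8, 52.4, 81.6 and 73.1 against 50.7, 31.5, 61.8, 55.5 and 64.7, 1.31-fold. Their interval, 0.94 to 1.85-fold, included both no change and 1.5-fold. The difference between the strains was 0.45 ± 0.36 on the log2 scale (limma adjusted p = 1.0). Over the alternatives the log2 estimate ran from 0.10 to 0.63 in Ts1Rhr and from 0.11 to 0.85 for the difference, none called.

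Tmprss2 (ENSMUSG00000000385, chr16:97564682-97659541, minus strand), the epithelial protease, was at the edge of detection, with 0 to 29 reads per library. WT littermates of Dp3Tyb had 17.4, 0, 10.8, 0 and 2.94, and Dp3Tyb hearts 10.2, 7.04, 11.9, 20.3 and 12.6. The hearts at 0 were the WT replicates 2 and 4, where a count of 0 allows up to 2.28 and 2.24 (3 reads each, counting error only). The estimate of 1.72 ± 0.80 (interval 0.98 to 11.2-fold, limma adjusted p = 1.0) rested on the WT hearts near 0, and on recovered reads it was 1.03 in edgeR and 0.99 in DESeq2. In the Ts1Rhr cohort WT hearts had 5.40, 5.42, 4.48, 9.57 and 9.70 and Ts1Rhr hearts 1.198, 2.93, 0, 16.3 and 21.2. The gene reached 10 in only 2 of these 10 libraries and was not in the limma fit, and an exact permutation test over all splits of these hearts gave a difference of −0.59 on the log2 scale, 2-sided p = 0.548 (smallest possible 0.00794). The mean count had the opposite order, at 8.33 ± 9.73 (SD, n = 5) in Ts1Rhr and 6.92 ± 2.51 in WT littermates, so no direction was given by these hearts.

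Tmprss2 was low in the hearts that were low in lung and foregut markers. In the 5 hearts with Nkx2-1 below 2, Tmprss2 was 0 to 2.94 (median 0), and in the other 15 it was 2.93 to 21.2 (median 10.2). Among those 15 the order did not follow the 6 defining markers throughout, since WT replicate 3 of the Ts1Rhr cohort had a summed count of 236 and Tmprss2 at 4.48, while Dp3Tyb replicate 1 had 64.7 and 10.2. Ripk4 was 35.2 to 89.8 (median 46.4) in the 5 and 31.5 to 128 (median 61.8) in the 15, with wide overlap. Markers of squamous epithelium, 5 genes, summed to 28.4 to 214 in WT littermates of Dp3Tyb, 57.9 to 354 in Dp3Tyb, 43.4 to 183 in WT littermates of Ts1Rhr and 40.0 to 229 in Ts1Rhr. When the libraries with Nkx2-1 below 2 were left out, a choice made after seeing the data that leaves 2 WT littermates, the Tmprss2 estimate in Dp3Tyb became −0.21 and that of Ripk4 0.54 on the log2 scale. In the same fit C2cd2 was 0.75, Cbr1 0.61, Zbtb21 0.51, Setd4 0.61 and Prdm15 0.46, none called (adjusted p 0.123 for C2cd2, 0.367 for Cbr1 and 0.732 for Zbtb21). Over all genes, limma called 0 of 14504 in that fit of 7 hearts, with 266 at an unadjusted p below 0.05, and the alternatives of the reported fit gave Tmprss2 in Dp3Tyb a range of −0.21 to 3.05. With the 14 markers of the longer list other than Etv5 and Id2, which were high in every heart, the sum was 22.8 to 763 in WT littermates of Dp3Tyb and 143 to 1004 in Dp3Tyb, with Sftpc at 3.62 or below throughout. With the lung and foregut score as a covariate, the estimates in Dp3Tyb were 0.65 for Tmprss2 and 0.61 for Ripk4. The differences between strains were then −0.0099 for Tmprss2 and 0.11 for Ripk4, none called. In the reported fit these differences were 2.31 ± 1.18 and 0.45 ± 0.36, also not called.

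**Figure D3:**
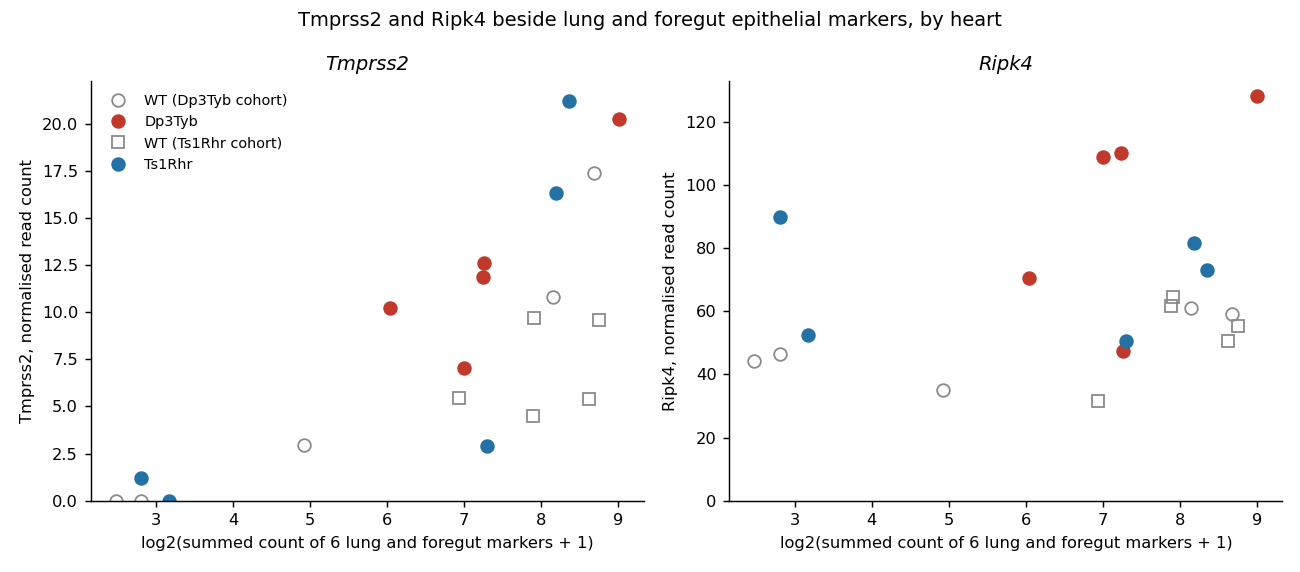
Tmprss2 (left) and Ripk4 (right) as normalised read counts (y axis) in each of the 20 hearts, against the log2 summed count plus 1 of Nkx2-1, Sftpc, Foxa2, Shh, Epcam and Cdh1 (x axis). Each point is 1 heart, and open symbols are WT. The 5 hearts at the left, with Nkx2-1 below 2, have Tmprss2 at 0 to 2.94, while their Ripk4 counts of 35.2 to 89.8 lie within the range of the others.

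Mx2 (ENSMUSG00000023341, chr16:97536081-97560901, plus strand), the interferon-induced GTPase, is listed as a transcribed pseudogene by RefSeq on GRCm38 and as protein coding by GENCODE, and its sequence is close to that of Mx1, so reads may be split between them. WT littermates had 18.5, 14.5, 10.05, 17.2 and 26.4 and Dp3Tyb hearts 22.1, 25.04, 25.4, 24.6 and 16.8. The highest WT heart was above every Dp3Tyb heart. The estimate in Dp3Tyb was 0.42 ± 0.25 on the log2 scale (1.34-fold, interval 0.92 to 1.96, limma adjusted p = 1.0). It was 0.69 without libraries over 10% mitochondrial (limma adjusted p = 0.452) and ran from 0.26 to 0.59 when 1 heart was left out. In Ts1Rhr, with 2 copies, the estimate was 0.52 ± 0.32 (1.44-fold, interval 0.88 to 2.34, limma adjusted p = 0.795). The counts were 18.0, 16.6, 35.5, 21.5 and 19.7 against 23.8, 6.51, 15.2, 15.3 and 17.8. Leaving out 1 heart moved this estimate between 0.26 and 0.69. The interval of the difference between strains, 0.51 to 1.70-fold, included both no difference and 1.5-fold. Mx1, which is triplicated in both strains, was too low to be tested, at 0 to 10.2 in the 20 hearts.

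The difference between the strains, the change in Dp3Tyb minus the change in Ts1Rhr, was tested over all 20 hearts. It was called for C2cd2 (0.71 ± 0.11 on the log2 scale, 1.63-fold, interval 1.40 to 1.91, limma adjusted p = 0.0292) and Zbtb21 (0.61 ± 0.10, 1.53-fold, interval 1.33 to 1.76, adjusted p = 0.0358). These 2 of 8 were the only genes called among the 15348 tested (0.013%), and DESeq2 called 3 genes in all (0.0195%), each of them 1 of the 8. Cbr1 differed by 0.58 ± 0.10 (adjusted p = 0.101 in limma), Setd4 by 0.65 ± 0.29 and Prdm15 by 0.44 ± 0.14, both at adjusted p = 1.0. Leaving out 1 heart gave 0 to 3 called members, with C2cd2 kept in 9 and Zbtb21 in 4 of 20 such fits. With only the 3 Ts1Rhr hearts labelled "DS model no heart defects" the differences were 0.66 for C2cd2 and 0.54 for Zbtb21. Neither was called (adjusted p = 0.328 and 0.333 in limma). Lung and foregut markers differed in the same contrast, with 14 of 15 tested higher, a median log2 difference of 3.34 and 8 at an unadjusted p below 0.05 (0 called). With the score of these markers as a covariate the differences were 0.67 for C2cd2 and 0.58 for Zbtb21, not called (adjusted p = 0.382 and 0.420), and with no filter on low values both calls were also lost (adjusted p = 0.0695 and 0.141).

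Against the 15 hearts with 2 copies, which share no extra copy of these genes but come from both cohorts, 4 of the 8 rose in Dp3Tyb. C2cd2 was 1.71-fold (0.77 ± 0.06 on the log2 scale, limma adjusted p = 1.22e-06), Zbtb21 1.46-fold (0.54 ± 0.06, adjusted p = 4.47e-05), Cbr1 1.38-fold (0.47 ± 0.06, adjusted p = 0.000558) and Prdm15 1.43-fold (0.51 ± 0.08, adjusted p = 0.00557). The Prdm15 call was lost without libraries over 10% mitochondrial (0.42, adjusted p = 0.0561) and without those with Nkx2-1 below 2 (0.53, adjusted p = 0.0939). Setd4 was 1.69-fold (0.76 ± 0.17) at an adjusted p of 0.197 and passed in edgeR (0.0403) and DESeq2 (0.000267). The called share was 0.0782% of 15348 genes in limma, 0.0847% in edgeR and 0.169% in DESeq2. Of the 12 genes that limma called, 10 lie on chromosome 16. Of those 10, 4 were among the 8 and 6 were not, namely Bace2, Brwd1, Hlcs, Pigp, Ets2 and Hmgn1. Bace2 (0.61 on the log2 scale, limma adjusted p = 1.56e-05) is triplicated in both strains, so the 15 hearts do not all have 2 copies of it. The copies of the remaining genes in Ts1Rhr were not examined. Complete separation of the 5 hearts from the 15 was rarer than a call, at 5 genes or 0.0326%, of which 4 were Cbr1, Prdm15, C2cd2 and Zbtb21. The fifth, Heph on the X chromosome, was named after its values were seen. Cbr1 ran from 483 to 573 against 309 to 450, Prdm15 from 282 to 376 against 193 to 276, C2cd2 from 880 to 1017 against 463 to 597, and Zbtb21 from 393 to 445 against 254 to 325. These 15 hearts include the 5 WT littermates, so this comparison and the one with littermates share samples. Within the Dp3Tyb cohort alone, the estimates of these genes were those given above.

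**Figure D4:**
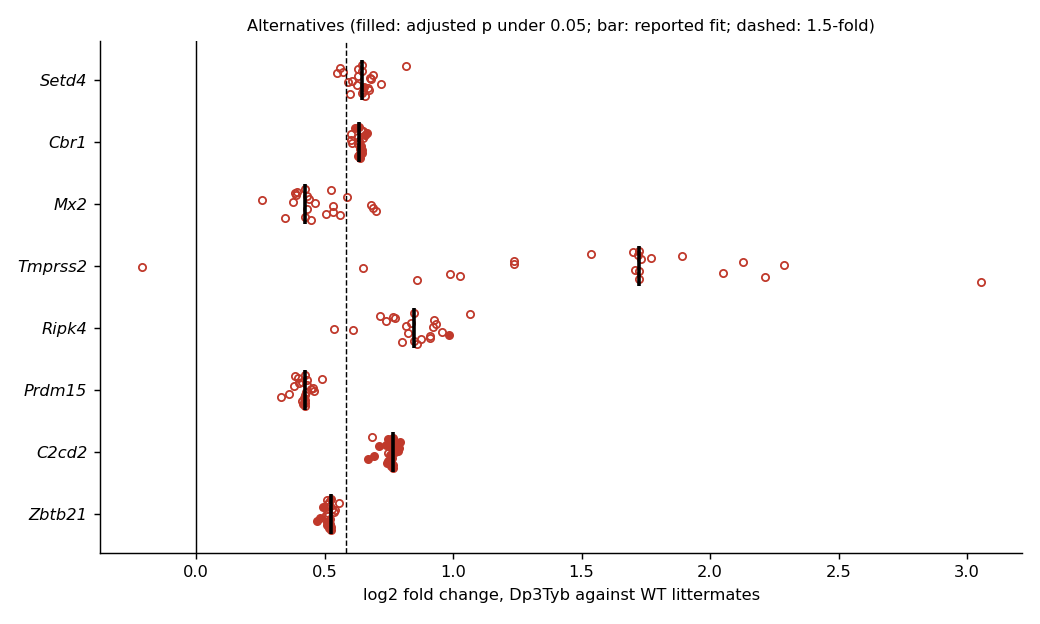
Log2 fold change of each gene in Dp3Tyb against WT littermates (x axis) under each alternative processing (points) and in the reported fit (black bar). Filled points have an adjusted p below 0.05. Estimates of Cbr1, C2cd2 and Zbtb21 stay within 0.60 to 0.66, 0.67 to 0.79 and 0.47 to 0.55, while Tmprss2 runs from −0.21 to 3.05.

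Per length, the 8 genes covered a wide range of expression in WT hearts. Normalised count per kilobase of exon was 96.0 ± 10.5 (SD, n = 10 WT hearts) for Cbr1, 71.3 ± 6.06 for C2cd2, 31.3 ± 1.76 for Zbtb21, 20.7 ± 2.16 for Prdm15, 14.2 ± 3.20 for Ripk4, 4.58 ± 1.61 for Mx2, 4.07 ± 0.81 for Setd4 and 0.900 ± 0.737 for Tmprss2. The lowest heart for Cbr1 was above the highest for C2cd2, and the same held for C2cd2 over Zbtb21, Zbtb21 over Prdm15 and Ripk4 over Mx2. Prdm15 and Ripk4, Mx2 and Setd4, and Setd4 and Tmprss2 overlapped as neighbours in this order. The 4 genes highest per length were those that separated the Dp3Tyb hearts from all others. In both strains the intervals were wider for the other 4, Ripk4, Mx2, Setd4 and, where it was fitted, Tmprss2, than for these.

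The genes just inside the shorter duplication, triplicated in both strains, gave the comparison for the method at the borders. Of 6 such neighbours, Cbr3, Fam3b and Mx1 were too low to test, and Dop1b, Morc3 and Bace2 were measured. Bace2, a protease related to the β-secretase, rose by 0.75 ± 0.07 on the log2 scale in Dp3Tyb (limma adjusted p = 0.00300) and 0.79 ± 0.08 in Ts1Rhr (adjusted p = 0.00668). Dop1b was 0.41 and 0.53 and Morc3 0.48 and 0.51, with adjusted p from 0.0718 to 0.325. Across the distal border of the shorter duplication the change in Ts1Rhr thus went from 1.73-fold in Bace2 to 0.99-fold in Prdm15 and 1.04-fold in C2cd2, with Mx2 and Ripk4 between them unresolved and Tmprss2, also between them, too low to be fitted. Of 3 genes proximal to both duplications, Runx1, Clic6 and Rcan1, none was called in either strain (limma, none at an unadjusted p below 0.05), and Runx1 is 757383 bases from Setd4. Runx1 was 0.39 ± 0.20 in Dp3Tyb and −0.22 ± 0.16 in Ts1Rhr, and its difference between strains, 0.61 ± 0.25 on the log2 scale (1.52-fold, interval 1.05 to 2.20, unadjusted p = 0.0273, adjusted p = 1.0 in limma), was of the size of the Zbtb21 difference with a wider interval. Between the WT groups Runx1 differed by 0.46 ± 0.18 (limma unadjusted p = 0.0193, adjusted p = 0.833).

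Relatives of the 8 genes elsewhere in the genome were not called in either strain. Over all genes tested, 413 of 14763 in Dp3Tyb and 821 of 14867 in Ts1Rhr had an unadjusted p below 0.05 in limma. In limma 0 of 18 other SET-domain genes, 0 of 17 genes of carbonyl and aldo-keto reduction, 0 of 10 PRDM genes, 0 of 37 ZBTB genes and 0 of 5 genes related to C2cd2 were called in Dp3Tyb, with 0, 0, 1, 1 and 0 at an unadjusted p below 0.05. In Ts1Rhr 0 of the same numbers were called, with 0, 0, 1, 3 and 1 at an unadjusted p below 0.05. Median log2 fold changes in Dp3Tyb were −0.04 for SET-domain genes, 0.03 for carbonyl reduction, −0.03 for PRDM genes, −0.03 for ZBTB genes and −0.06 for relatives of C2cd2, beside −0.0027 for all genes. Of 10 relatives and epidermal partners of Ripk4, 0 were called in either strain (1 at an unadjusted p below 0.05 in each), with medians of 0.08 in Dp3Tyb and −0.12 in Ts1Rhr. Only 3 of 15 membrane serine proteases related to Tmprss2 were high enough to test, with 0 called and 0 at an unadjusted p below 0.05 in either strain. Interferon-response genes other than Mx2 had a median of 0.14 over 18 genes in Dp3Tyb (0 called, 0 at an unadjusted p below 0.05) and 0.36 over 19 genes in Ts1Rhr (0 called, 2 at an unadjusted p below 0.05, Ifi44 and Ifit3). Beside them, macrophage markers had a median of 0.30 in Dp3Tyb (7 of 7 higher, 1 at an unadjusted p below 0.05) and 0.31 in Ts1Rhr (6 of 7 higher, 3 at that p), and those of cushion and fibroblast cells 0.14 (7 of 7 higher, 0 at that p) and 0.12 (6 of 7 higher, 1 at that p), with 0 called, and their part in the interferon-response values was not tested.

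The genes whose levels varied most like each member from heart to heart, after group means were removed, lay elsewhere in the genome. Over 20 hearts, Pearson's r was 0.83 for Setd4 with Rmnd5b, 0.84 for Cbr1 with Zfp341, 0.77 for Mx2 with Rarres2, 0.94 for Tmprss2 with Nalcn, 0.86 for Ripk4 with Slc50a1, 0.75 for Prdm15 with Slc12a2, 0.83 for C2cd2 with Tigd3 and 0.81 for Zbtb21 with 9330102E08Rik. The next for Tmprss2 were Twist2 and Myh11, at 0.93 each, and for C2cd2 they were Sting1 at 0.82 and 4933427D14Rik at 0.81. For the other members the next pair of genes was Rtf2 and Hikeshi (Setd4), Tcte2 and Tbca (Cbr1), Tcf15 and Tomm6os (Mx2), Syn2 and C1ql3 (Ripk4), Gm45855 and Zbtb39 (Prdm15), and Syt11 and Npy1r (Zbtb21). Among the members themselves the highest r was 0.69, between Setd4 and Ripk4, both low in Dp3Tyb replicate 5, and the lowest was −0.40, between Cbr1 and C2cd2. These correlations are descriptions over libraries that share depth and tissue content, and each was picked as the highest among the tested genes with a symbol.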

How the data were processed

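RNA from 20 whole E13.5 mouse hearts was sequenced from mRNA libraries. The authors deposited 1 table of signal values, read counts per gene divided by a library size factor. The submitters' processing notes list Trimmomatic 0.36, STAR 2.5.2a, RSEM 1.2.31, DESeq, DESeq2 and the build GRCm38. The study tested differential expression with DESeq2, while the roles of the other tools, the annotation release and the strand setting are not given in the sources used here. Every deposited value was a whole multiple of the value of 1 read in its library (100% whole, relative tolerance 1e-06), so reads were recovered, rounded and used for edgeR and DESeq2. Symbols came from GENCODE vM39 (44565 of 48795 IDs), and places from RefSeq on GRCm38.p6.

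The main test was limma 3.58.1 (trended, robust) on log2(value + 1), run on genes reaching 10 in no fewer than 5 of the fitted libraries, and p-values were adjusted over all of these by the Benjamini-Hochberg method (called below 0.05). Fold changes are on this scale, on which those of low genes can differ from a ratio of counts, in either direction. The alternatives were edgeR 4.0.16, DESeq2 1.42.0 and limma-voom on recovered reads, other pseudocounts and filters, library weights, covariates and leaving out libraries. The fits with limma, edgeR, DESeq2 and limma-voom were run on simulated reads with known fold changes. This covered Dp3Tyb against WT littermates and the difference between strains, and not the other comparisons, settings or steps. Replicates are numbered in accession order and pair nothing. The labels do not tie hearts to litters, so hearts of the same litter could not be grouped. Each heart was treated as independent, which may make p-values too small. No 2 libraries of a group agreed within sampling noise (40 pairs, mean chi-square per gene 4.11 to 151). The highest values were with replicate 5 of the WT littermates of Dp3Tyb (128.2 to 150.9). In the Ts1Rhr cohort the mean chi-square reached 121.4 (WT replicates 4 and 5) and 84.1 (Ts1Rhr replicates 2 and 3). Intervals for 0 counts cover counting error only.

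The genes, lists and tests were chosen with earlier results of these data known. Named genes were the 8 genes, listed neighbours at the borders, lists of relatives and cell type markers, for each of the 8 the 3 genes with the highest r, and Heph, chosen after its values were seen.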

Additional observations from a re-analysis of the deposited data

Results flagged for a closer look

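Mx2 in Ts1Rhr replicate 3 (35.5 normalised counts) stood apart from the other 4 Ts1Rhr hearts, with a gap that was 0.742 of the group's range. Zbtb21 in Dp3Tyb replicate 3 (393) stood below the other 4 Dp3Tyb hearts, with a gap of 0.747 of the range. These were 2 of 32 groups examined for a sample far from the others, and chance gives about 1 in 20. The change in Dp3Tyb differed from that in Ts1Rhr for C2cd2 by 0.71 (limma adjusted p = 0.0292) and for Zbtb21 by 0.61 (adjusted p = 0.0358) on the log2 scale.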

How the results depend on the processing

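Counts of the 8 genes called against WT littermates in Dp3Tyb moved from 3 to 5 with library weights, which added Setd4 and Ripk4. They fell to 2 with no filter on low values (Zbtb21 lost, adjusted p = 0.0877 in limma). With the lung and foregut score as covariate they fell to 1 (Cbr1 and Zbtb21 lost). Without the libraries with Nkx2-1 below 2, a setting chosen after seeing the data, they fell to 0. They ran from 1 to 3 when 1 heart was left out, with the call kept for C2cd2 in 10, Cbr1 in 3 and Zbtb21 in 1 of those 10 fits. For the difference between strains, the 2 called became 0 with no filter on low values, with the lung and foregut score, without the libraries with Nkx2-1 below 2 or with only the 3 Ts1Rhr hearts labelled without heart defects, and 1 with limma-voom or without libraries over 10% mitochondrial. They ran from 0 to 3 when 1 heart was left out. Over all 32 alternatives the difference ran from 0.62 to 0.77 for C2cd2 and from 0.48 to 0.65 for Zbtb21 on the log2 scale. The causes were not tested. Against the 15 hearts with 2 copies, Prdm15 lost its call without libraries over 10% mitochondrial (0.42, limma adjusted p = 0.0561) and without those with Nkx2-1 below 2 (0.53, adjusted p = 0.0939), and its estimate ran from 0.40 to 0.58 on the log2 scale over 31 alternatives.

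Signs changed only in estimates that were not called. On the log2 scale, Tmprss2 in Dp3Tyb became −0.21 without the libraries with Nkx2-1 below 2, and its difference between strains −0.80 there and −0.0099 with the lung and foregut score. Setd4 in Ts1Rhr became 0.00017 with a pseudocount of 0.1, 0.12 with library weights and 0.038 with the lung and foregut score. It became 0.072 with the 3 hearts labelled without heart defects, and ran from −0.18 to 0.085 when 1 heart was left out. Prdm15 in Ts1Rhr became 0.060 with those 3 hearts and ran from −0.072 to 0.044 when 1 heart was left out. C2cd2 in Ts1Rhr ran from −0.0023 to 0.088 when 1 heart was left out, and Zbtb21 in Ts1Rhr became 0.0032 without libraries over 10% mitochondrial. The Mx2 difference between strains became 0.036 with limma-voom, 0.021 with DESeq2, 0.10 with library weights, 0.13 without libraries over 10% mitochondrial, 0.060 with the lung and foregut score and 0.31 without those with Nkx2-1 below 2, and ran from −0.27 to 0.16 when 1 heart was left out. Zbtb21 between the WT groups became −0.0026 with DESeq2. Tmprss2 had 0 to 29 and Mx2 6 to 40 reads per library. No paired analysis was possible because replicate numbers carry no pairing.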
